A study of Mus musculus with 8 samples.

Results

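The genes described here are 9 hormone-response genes of luminal mammary epithelium, of 56748 genes in the deposited count table. They were taken by symbol through their Ensembl identifiers and comprise the receptors Esr1, Pgr and Prlr, the cell markers Foxa1, Cited1 and Prom1, and the hormone-induced targets Greb1, Wnt4 and Tnfsf11. All 9 have a row in the table, and 8 passed the filter on low counts, Tnfsf11 being the exception. The libraries came from inguinal fat pads of wild-type (WT) female mice. In the Aldara group (4 libraries), 62.5 mg of Aldara cream with 5% imiquimod, an agonist of Toll-like receptor 7, was put on shaved back skin on 3 consecutive days. The Vehicle group (4 libraries) received a matching volume of cream without imiquimod, made of Boots Aqueous Cream and 10% Vaseline Lanette Cream, on the same days. Fat pads were taken 24 h after the last application, cells were enriched with F4/80 beads, and each library pooled about 30000 cells from 6 fat pads. The labels give neither the age of the mice nor their oestrous stage, nor do they state that different pools hold different animals, which leaves the p-values as measures of variation among pools, some of it possibly technical.

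The mammary gland lies in the fat pad, and its ducts are lined by luminal cells of which only some, the hormone-sensing cells, carry oestrogen and progesterone receptors. Oestrogen acts through the receptor encoded by Esr1, with the pioneer factor encoded by Foxa1 opening its sites on chromatin, and induces Pgr, which encodes the progesterone receptor, and Greb1, which encodes a cofactor of the oestrogen receptor. Progesterone in turn induces Wnt4 and Tnfsf11 (RANKL) in the same cells, and these secreted or membrane-bound ligands act on neighbouring cells, whereas prolactin acts through the receptor encoded by Prlr and the transcription factor STAT5.

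The libraries were collected as macrophages, with a purity gate above 90% of cells positive for F4/80 and CD64, yet luminal transcripts were abundant in all 8. Total counts per library ranged from 19537607 to 34471508. The 10 genes of a list shared by luminal cells summed to between 12555 and 17248 CPM (read counts scaled to a common library size with TMM factors, the trimmed mean of M values) in Vehicle and between 12330 and 15895 CPM in Aldara. None of these 10 passed the test in either direction, although 1 fell with DESeq2, with upper-quartile factors, without the filter on low counts or without Aldara replicate 1, 1 rose without Aldara replicate 4, and 1 rose and 1 fell with the replicate block. Their median log2 fold change was −0.04, with 5 of the 10 higher and 5 lower. The widest changes in each direction were those of Krt19 (−0.45, SE 0.14, edgeR adjusted p = 0.0636) and Ehf (0.46, SE 0.16, adjusted p = 0.0957). Epcam, an epithelial adhesion molecule, measured 1476 ± 45.2 CPM (SD, n = 4) in Vehicle and 1388 ± 100.3 CPM in Aldara (n = 4), and the keratin genes Krt8 and Krt18 were not called either. The 12 macrophage genes summed to between 1449 and 3048 CPM in Vehicle and between 3404 and 9087 CPM in Aldara, with Adgre1 (F4/80) at 82.5 ± 20.4 and 967 ± 476 CPM (log2 fold change 3.55, SE 0.4, edgeR adjusted p = 0.0021). Csf1r, the macrophage growth factor receptor, measured 274 ± 70.4 and 543 ± 211 CPM (edgeR adjusted p = 0.0648, and 0.00114 with the replicate block). Of the 6 markers that define hormone-sensing luminal cells here (Esr1, Pgr, Prlr, Foxa1, Cited1 and Prom1), all were detected in every library, with a lowest value of 64.5 CPM. In such bulk samples, fewer cells of a type and less RNA per cell cannot be told apart.

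Of the hormone-response genes, Pgr, Greb1 and Wnt4 fell with Aldara and none rose in the unpaired fit, whereas Esr1 and Cited1 had nearly equal means in both groups. Among the 16780 genes tested, 3.86% fell and 6.98% rose under the same rule (edgeR quasi-likelihood test, Benjamini-Hochberg adjusted p under 0.05), beside 3 of the 8 tested hormone-response genes that fell. The median log2 fold change of these 8 was −0.44, beside 0.01 over all genes tested. The set was assembled with earlier results on these data known, so this share is a description. With the replicate number as a block, Pgr, Greb1 and Prlr fell (3 of 8), in a fit where 6.14% of all genes fell. Wnt4 did not pass there (edgeR adjusted p = 0.0668). Pgr alone fell with limma voom or with libraries scaled on the shared luminal genes (1 of 8), and when Aldara replicate 2, 3 or 4 was left out (1 of 9, since Tnfsf11 then passed the filter).

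**Figure D1:**
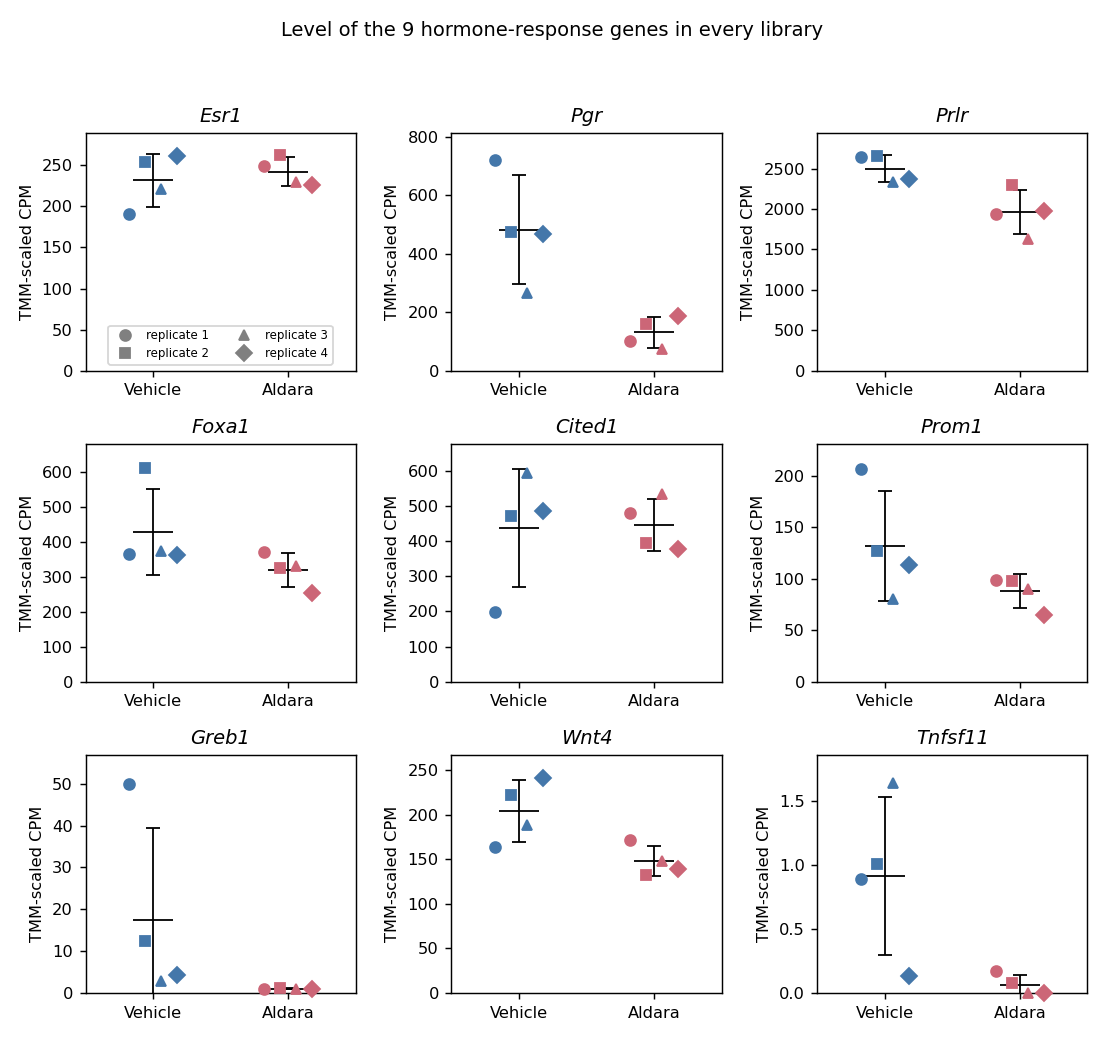
TMM-scaled CPM of the 9 genes in every library, on linear axes from 0 with a scale of its own for each gene. Points are libraries with the replicate number as the marker shape, and bars are the mean ± SD of 4 libraries (the lower bars of Greb1 and Tnfsf11 are cut at 0). Pgr and Greb1 were lower in all 4 Aldara libraries than in any Vehicle library, whereas the Esr1 points overlap.

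Among the receptors, Esr1 (ENSMUSG00000019768) showed little difference. It measured 190, 254, 222 and 261 CPM in Vehicle replicates 1 to 4 and 249.7, 263, 229 and 226 CPM in Aldara replicates 1 to 4. The groups overlapped, with the lowest level in Vehicle replicate 1. The means were 232 ± 32.5 and 242 ± 17.5 CPM (SD, n = 4 each), and the log2 fold change of 0.06 (SE 0.11, edgeR adjusted p = 0.784) was smaller than its error.

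Pgr (ENSMUSG00000031870), itself a classical target of oestrogen, was the receptor that fell. Its levels were 719.9, 475, 266 and 467 CPM in Vehicle replicates 1 to 4 and 101, 159, 73.2 and 188 CPM in Aldara replicates 1 to 4. Every Aldara library lay below every Vehicle library, although Vehicle replicate 3 and Aldara replicate 4 were closer to each other than the SD of the Vehicle group. The mean went from 482 ± 186 to 131 ± 52.5 CPM (log2 fold change −1.88, SE 0.36, edgeR adjusted p = 0.0119). This call held when any 1 library was left out, with log2 fold changes from −2.14 to −1.63. It was lost without the filter on low counts (adjusted p = 0.0628 over 31704 genes).

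Prlr (ENSMUSG00000005268), which encodes the prolactin receptor, was one of the most abundant transcripts of the whole table, 21st by CPM in Vehicle and 32nd in Aldara. It measured 2638, 2656, 2337 and 2370.5 CPM in Vehicle replicates 1 to 4 and 1938, 2299, 1628 and 1981 CPM in Aldara replicates 1 to 4. The Aldara libraries were all below the Vehicle libraries, by a margin of 38 CPM between the nearest pair. The log2 fold change of −0.35 (SE 0.13) did not pass the test (edgeR adjusted p = 0.1), and it passed with the replicate number as a block (adjusted p = 0.0394, a fit in which 6.14% of all genes fell). Pgr, Greb1 and Prlr were the 3 genes of the set whose groups did not overlap, all with Aldara below Vehicle, as for 7.79% of the genes tested.

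The markers Foxa1, Cited1 and Prom1 were not called. Foxa1, the pioneer factor, measured 367, 613, 376 and 363 CPM in Vehicle replicates 1 to 4 and 373, 325, 331 and 254 CPM in Aldara replicates 1 to 4. Vehicle replicate 2 stood above the other 7 libraries, and the remaining values overlapped (log2 fold change −0.42, SE 0.18, edgeR adjusted p = 0.177). Cited1, a transcriptional coregulator used as a marker of these cells, measured 198, 469.96, 593 and 485 CPM in Vehicle replicates 1 to 4 and 478, 396, 534 and 376 CPM in Aldara replicates 1 to 4. Its lowest value was again that of Vehicle replicate 1, and the group means of 436 ± 168 and 446 ± 73.6 CPM differed by less than the spread (edgeR adjusted p = 0.962). Prom1, which encodes a glycoprotein of membrane protrusions, measured 207, 127, 79.9 and 113 CPM in Vehicle replicates 1 to 4 and 99.3, 98.3, 89.8 and 64.5 CPM in Aldara replicates 1 to 4. Here Vehicle replicate 1 was the highest and the groups overlapped through Vehicle replicate 3 (log2 fold change −0.58, SE 0.27, edgeR adjusted p = 0.206).

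Of the hormone-induced targets, Greb1 (ENSMUSG00000036523) fell from a level that varied widely among the Vehicle libraries. It measured 49.9, 12.5, 2.91 and 4.37 CPM in Vehicle replicates 1 to 4, from 1064, 274, 103 and 136 counts. In Aldara replicates 1 to 4 it measured 0.939, 1.16, 0.947 and 0.852 CPM, from 22, 29, 23 and 16 counts. The Vehicle libraries thus spread over a 17.2-fold range, whereas the Aldara libraries lay within a 1.36-fold range, all under the lowest Vehicle library. The group means were 17.4 ± 22.1 and 0.973 ± 0.129 CPM (SD, n = 4 each), and the fitted log2 fold change was −4.13 (SE 0.93, edgeR adjusted p = 0.0233). Without Vehicle replicate 1 it was −2.73 (adjusted p = 0.0157). The call was lost without any 1 of the Aldara libraries (adjusted p between 0.0684 and 0.106), with limma voom (0.139), without the filter (0.112) and with scaling on the shared luminal genes (0.0714).

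Wnt4 (ENSMUSG00000036856), a secreted ligand through which progesterone acts on basal and stem cells, measured 164, 222, 188 and 242 CPM in Vehicle replicates 1 to 4. In Aldara replicates 1 to 4 it measured 172, 133, 148 and 139 CPM. The groups overlapped, since Vehicle replicate 1 lay below Aldara replicate 1. Wnt4 fell by 0.46 on the log2 scale (SE 0.13, edgeR adjusted p = 0.0453), from 204 ± 34.6 to 148 ± 16.9 CPM. The call was near the threshold, with adjusted p of 0.0668 under the replicate block and of up to 0.114 when Vehicle replicate 2, 3 or 4, or any Aldara library but replicate 1, was left out.

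Tnfsf11 (ENSMUSG00000022015), which encodes RANKL, the signal by which progesterone drives proliferation of neighbouring cells, was close to the limit of detection. Vehicle replicates 1 to 4 held 19, 22, 58 and 4 counts of Tnfsf11, or 0.891, 1.01, 1.64 and 0.128 CPM. Aldara replicates 1 to 4 held 4, 2, 0 and 0 counts, or 0.171, 0.0797, 0 and 0 CPM. The groups overlapped, because Vehicle replicate 4 lay below Aldara replicate 1. In the fit without a filter on low counts, where 2.19% of 31704 genes fell, Tnfsf11 passed (log2 fold change −3.74, SE 0.87, edgeR adjusted p = 0.0258). It did not pass when Vehicle replicate 1, Vehicle replicate 2, or any Aldara library but replicate 1 was left out (adjusted p up to 0.109), nor with limma voom (0.0915). T cells also make RANKL, and 10 T cell genes summed to between 8.13 and 11.8 CPM in Vehicle and between 5.78 and 10.5 CPM in Aldara. None of the 5 tested passed, although Cd28 and Thy1 fell with the replicate block. Cd3d, Cd3e and Cd3g, which encode invariant chains of the T cell receptor complex, were at or under 0.0376 CPM on average in both groups, whereas Trac, the receptor alpha constant region, averaged 0.162 CPM in Vehicle and 0.486 CPM in Aldara. The part of T cells in the Tnfsf11 counts was not tested.

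**Figure D2:**
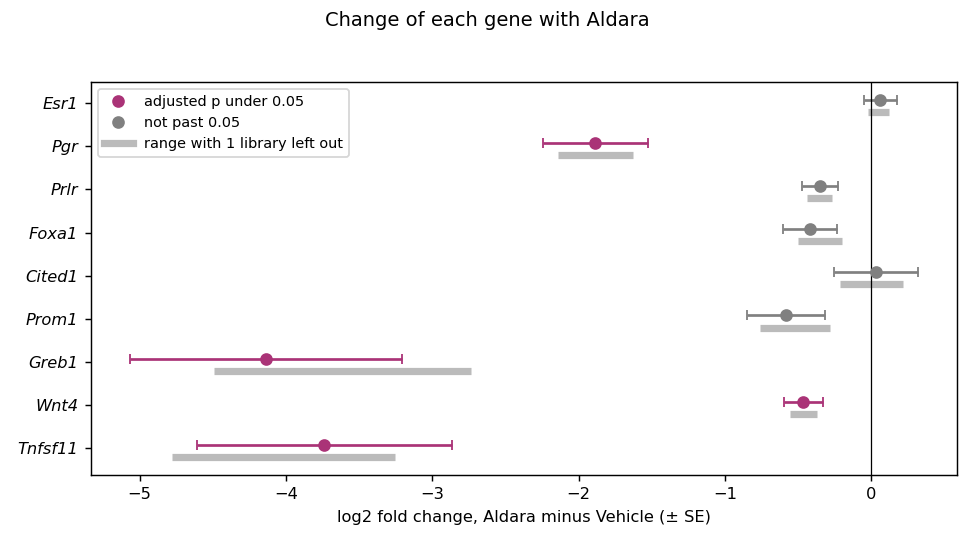
Log2 fold change of each gene (Aldara minus Vehicle) with its standard error, from the edgeR fit on the filtered table (without the filter for Tnfsf11). Grey bars span the values obtained when 1 library was left out, from −4.49 to −2.73 for Greb1 and from −2.14 to −1.63 for Pgr.

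Pgr and Greb1 are the 2 genes of the set known as direct oestrogen targets, so the sequence around their start sites is shown. The windows span 250 bases before to 50 bases after each RefSeq start site on build GRCm38.p6, written 5′ to 3′ on the gene's own strand, with each arm of the oestrogen response element (GGTCA, or TGACC on the other strand) in capitals. RefSeq lists 2 start sites for Greb1, both on the minus strand, at chr12:16800837-16801136 and chr12:16757190-16757489, and 1 for Pgr, on the plus strand at chr9:8899583-8899882.
Greb1, upstream start: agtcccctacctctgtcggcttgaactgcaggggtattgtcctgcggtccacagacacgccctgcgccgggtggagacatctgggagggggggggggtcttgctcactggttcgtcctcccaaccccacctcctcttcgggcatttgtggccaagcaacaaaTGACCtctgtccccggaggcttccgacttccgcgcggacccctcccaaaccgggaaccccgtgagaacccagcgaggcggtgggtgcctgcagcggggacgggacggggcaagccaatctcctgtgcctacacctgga
Greb1, downstream start: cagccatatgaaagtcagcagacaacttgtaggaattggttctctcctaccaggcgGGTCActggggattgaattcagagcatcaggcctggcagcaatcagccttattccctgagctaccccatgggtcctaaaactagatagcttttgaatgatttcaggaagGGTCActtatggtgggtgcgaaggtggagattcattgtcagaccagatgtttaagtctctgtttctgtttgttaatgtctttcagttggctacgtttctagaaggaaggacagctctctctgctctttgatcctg
Pgr: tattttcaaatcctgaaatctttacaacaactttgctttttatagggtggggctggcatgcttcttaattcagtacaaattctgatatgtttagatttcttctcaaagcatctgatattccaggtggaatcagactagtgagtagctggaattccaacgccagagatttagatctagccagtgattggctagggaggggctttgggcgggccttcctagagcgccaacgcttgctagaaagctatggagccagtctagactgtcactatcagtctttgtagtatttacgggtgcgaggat
The upstream window of Greb1 holds 1 arm, starting 88 bases before the start site, and the downstream window holds 2, starting 194 and 85 bases before it. The Pgr window holds none.

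The full oestrogen response element (GGTCA, then 3 bases of any kind, then TGACC) was in 0 of the 16 windows of the 9 genes, and in 0.07% of all 32851 windows in the table. The single arm was in 7 of the 16 windows, in Greb1, Esr1, Foxa1, Cited1 and Prom1, or 43.8%, beside 40.5% of all windows. The progesterone response element (GNACA, then 3 bases of any kind, then TGTNC, with N for any base), shared with corticoid receptors, was in 0 of the 16 windows and in 0.475% of all windows. Its single arm TGTTCT was in 2 of the 16, in Prlr and Prom1, or 12.5%, beside 19% of all windows. Both strands were searched, and every full oestrogen response element also counts as holding the arm. The share of windows with an oestrogen arm was thus near that of all promoters, and a match is a string of letters, not a shown binding site.

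Per kilobase of exon, Cited1 stood highest in both groups, followed by Prlr and Foxa1. In Vehicle the order of mean levels per kilobase was Cited1 (249 ± 96 CPM per kb), Prlr (163 ± 11.1), Foxa1 (129 ± 36.7), Pgr (56.4 ± 21.7), Wnt4 (48.7 ± 8.25), Prom1 (18.4 ± 7.49), Esr1 (17 ± 2.38), Greb1 (1.82 ± 2.3) and Tnfsf11 (0.409 ± 0.277). Clear steps, with ranges that did not overlap, separated Foxa1 from Pgr, Wnt4 from Prom1 and Esr1 from Greb1 in Vehicle, and other neighbours overlapped. In Aldara, Pgr (15.3 ± 6.14 CPM per kb) had moved below Wnt4 (35.3 ± 4.04) and Esr1 (17.7 ± 1.28), and its range overlapped those of Esr1 and of Prom1 (12.3 ± 2.26). Among 16480 tested genes with an exon length, Pgr ranked 816th per kilobase in Vehicle and 3516th in Aldara, and Greb1 11185th and 16244th, whereas Cited1 ranked 162nd and 134th. Lengths are unions of exons of GENCODE M21, which may differ from the annotation the reads were counted on.

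The ratio of a target to the receptor that induces it does not depend on how libraries are scaled, so it compares the layers of the pathway within each library. The log2 ratio of Pgr to Esr1 counts was 1.92, 0.9, 0.26 and 0.84 in Vehicle replicates 1 to 4 and −1.3, −0.72, −1.65 and −0.27 in Aldara replicates 1 to 4. Pgr counts thus exceeded Esr1 counts in every Vehicle library and were fewer in every Aldara library, a mean difference of −1.97 (two-sided exact permutation, n = 4 each, p = 0.0286, adjusted p = 0.0381 over 4 ratios). The log2 ratio of Greb1 to Esr1 was −1.93, −4.34, −6.24 and −5.9 in Vehicle replicates 1 to 4 and between −8.02 and −7.81 in all Aldara libraries, a mean difference of −3.33 (exact permutation p = 0.0286, adjusted p = 0.0381). The smallest p that 4 against 4 libraries allow is 0.0286, so neither ratio could have given less. With Esr1 itself changing by only 0.06 on the log2 scale, both ratios largely restate the falls of Pgr and Greb1.

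The ratios of progesterone targets to Pgr moved in opposite directions, and only that of Wnt4 to Pgr was called. The log2 ratio of Wnt4 to Pgr was −2.13, −1.09, −0.5 and −0.95 in Vehicle replicates 1 to 4 and 0.76, −0.26, 1.02 and −0.43 in Aldara replicates 1 to 4. Wnt4 was therefore higher relative to Pgr in each Aldara library, by 1.44 on average (two-sided exact permutation, n = 4 each, p = 0.0286, adjusted p = 0.0381). Wnt4 itself fell, with a log2 fold change of −0.46 against −1.88 for Pgr, so this ratio largely restates the larger fall of Pgr. The ratio of Tnfsf11 to Pgr overlapped, with means of −9.37 ± 1.8 in Vehicle and −11.1 ± 1.61 in Aldara (difference −1.7, exact permutation p = 0.2, n = 4 each). Since 2 Aldara libraries held 0 counts of Tnfsf11, the added constant weighs on this ratio, and the difference was −0.59 with 2 added to each count and −2.47 to −1.02 with 1 library left out. The full groups did not overlap for the 3 called ratios, so leaving out 1 library could neither make them overlap nor reverse their difference. The adjusted p of each of the 3 called ratios rose above 0.05 when any library other than Vehicle replicate 3 was left out (0.0571 to 0.114). With 1 library fewer, p moves in coarse steps and can reach no less than 0.0286. Without Vehicle replicate 3 all 3 kept an adjusted p of 0.0381 (exact permutation), so a call was possible at this size. The calls on the ratios thus depended on which library was left out.

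**Figure D3:**
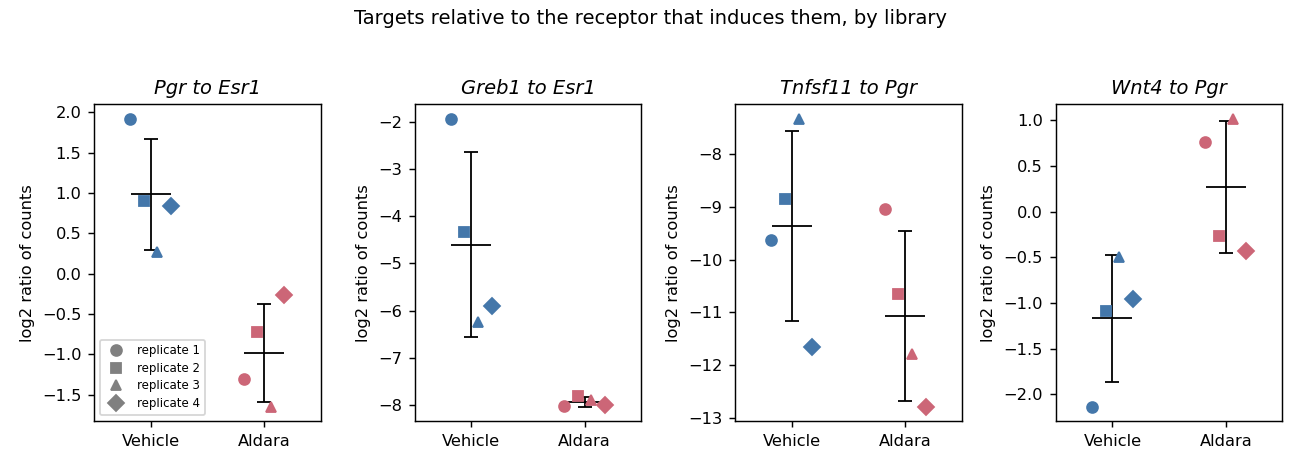
Log2 ratio of counts of a target to its receptor in each library, with mean ± SD of 4 libraries; 0.5 was added to every count, and the axes differ between panels. Pgr to Esr1 and Greb1 to Esr1 were lower in all Aldara libraries, Wnt4 to Pgr was higher, and Tnfsf11 to Pgr overlapped.

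Other oestrogen-induced genes divided in both directions. Of 18 tested genes of a list of 20 that oestrogen raises in mammary or breast cells, 3 fell and 3 rose, with a median log2 fold change of −0.24 (4 fell with the replicate block). Areg, the EGF receptor ligand that carries the oestrogen signal to the stroma, went from 1079, 613, 732 and 922 CPM in Vehicle replicates 1 to 4 to 137, 116, 106 and 311 CPM in Aldara replicates 1 to 4 (log2 fold change −2.32, SE 0.36, edgeR adjusted p = 0.00623). Ccnd1, which encodes cyclin D1, was at 211 ± 31.2 CPM in Vehicle and 113 ± 21.9 CPM in Aldara (−0.9 on the log2 scale, SE 0.15, adjusted p = 0.00524). Myb, a transcription factor, fell from 87.9 ± 28.1 to 37.6 ± 3.11 CPM (−1.22, SE 0.21). Egr3, an immediate-early factor, rose from 84.1 ± 7.59 to 139 ± 30.1 CPM (0.73, SE 0.14). The Aldara libraries lay wholly below the Vehicle libraries for Areg, Ccnd1 and Myb and wholly above them for Egr3, and each of the 4 calls held without any 1 library. The number that rose was 1 when Vehicle replicate 1 or 4 or Aldara replicate 3 or 4 was left out, or with scaling on the shared luminal genes.

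Among 11 tested genes of a list of 12 that progesterone raises, 2 fell and 0 rose, with a median of −0.19 (3 fell and 1 rose with the replicate block or DESeq2). Besides Ccnd1, Id4, an inhibitor of basic helix-loop-helix factors, was at 27.1 ± 6.1 CPM in Vehicle and fell to 13.6 ± 2.87 CPM in Aldara (−0.98 on the log2 scale, SE 0.19, edgeR adjusted p = 0.00923). Several genes of this list also respond to corticoids.

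Cofactors of the receptors mostly stayed under the threshold, with 2 of 17 tested genes risen, 1 fallen and a median of 0.02 (2 and 3 with the replicate block, and 2 fallen with DESeq2 or without Aldara replicate 1). The coactivator genes Ncoa1 and Ncoa3 rose by 0.43 (SE 0.09) and 0.44 (SE 0.1), and Fkbp4, an HSP90 co-chaperone of steroid receptors, fell by 0.47 (SE 0.1, edgeR adjusted p = 0.0119). With scaling on the shared luminal genes none of the 3 was called (adjusted p of 0.0609 to 0.0777). Ncoa1 was also lost without Aldara replicate 2 (0.0521) and Ncoa3 without Vehicle replicate 1 or Aldara replicate 2, 3 or 4 (up to 0.0663).

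Of 9 genes in a list of prolactin signalling 4 fell and 0 rose, with a median of −0.32, beside 3.86% of all genes tested that fell. The other 5 did not pass, among them the feedback inhibitor gene Cish and the alveolar factor gene Elf5. The list also holds Ghr, the growth hormone receptor gene, which is not downstream of the prolactin receptor and did not pass. Stat5a, the main STAT5 gene of mammary epithelium, measured 479, 316, 216 and 295 CPM in Vehicle replicates 1 to 4 and 125, 128, 99.1 and 134 CPM in Aldara replicates 1 to 4. No Aldara library reached the lowest Vehicle library, and the log2 fold change was −1.43 (SE 0.22, edgeR adjusted p = 0.00507). The feedback inhibitor genes Socs2 and Socs3 fell by 0.7 (SE 0.12) and 0.71 (SE 0.16), and Stat5b fell by 0.42 (SE 0.11). The call on Socs3 was lost without Vehicle replicate 2 (adjusted p = 0.0518) and that on Stat5b when Vehicle replicate 1 or 2, or any Aldara library but replicate 1, was left out (up to 0.0838) or libraries were scaled on the shared luminal genes (0.0537), whereas Stat5a and Socs2 held without any 1 library. With Vehicle replicate 2 left out 2 of the 9 fell, and with Vehicle replicate 3 left out 5 of the 9 fell.

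On the receiving side of the RANKL, WNT4 and amphiregulin signals, 1 of 18 tested genes rose, 1 fell, and the median was 0.03 (2 fell with the replicate block, with DESeq2 or without Vehicle replicate 3). Tnfrsf11b, which encodes osteoprotegerin, the decoy receptor of RANKL, dropped to 1.25 ± 0.256 CPM in Aldara against 3.68 ± 0.902 CPM in Vehicle (−1.56 on the log2 scale, SE 0.25, edgeR adjusted p = 0.00479). Tnfrsf11a, which encodes RANK and is also made by macrophages, rose from 23.1 ± 2.33 to 34.9 ± 6.93 CPM (0.59, SE 0.14, adjusted p = 0.0253). The call on Tnfrsf11a was lost when any library but Vehicle replicate 2 or Aldara replicate 1 was left out (adjusted p up to 0.0856) and with scaling on the shared luminal genes (0.0844).

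All 9 other markers of hormone-sensing cells had a lower fitted level in Aldara, and 2 of them fell (4 with the replicate block or DESeq2, 5 without Aldara replicate 1), with a median of −0.37. Besides Areg, Wfdc2, a secreted protease inhibitor-like protein, was lower in Aldara, at 297 ± 68.2 against 632 ± 188 CPM (−1.09 on the log2 scale, SE 0.22, edgeR adjusted p = 0.0121). The 9 markers summed to between 5592 and 5865 CPM in Vehicle and between 3682 and 4346 CPM in Aldara. Areg and Stc2 are part of both this list and that of oestrogen targets, and Tbx3 and Gata3 also stand among the cofactors. Within the sum, Areg averaged 836 CPM in Vehicle and 167 CPM in Aldara, so the lower sum in part repeats the change of an oestrogen target.

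**Figure D4:**
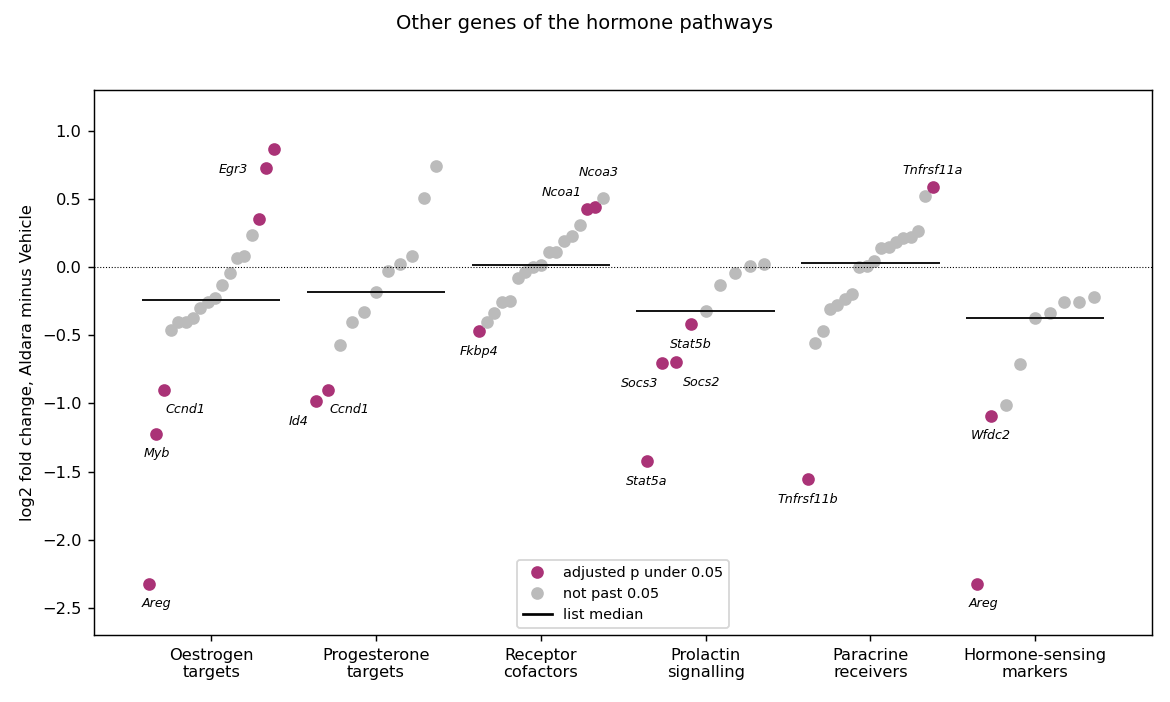
Log2 fold change (Aldara minus Vehicle) of every tested gene in 6 lists of the hormone pathways, with the list median as a line. Coloured points passed an adjusted p of 0.05 in the edgeR fit. Labels mark the genes named for the smallest p in each list, and genes can stand in several lists.

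Transcripts of other cell types moved along with these changes. The 10 fibroblast genes summed to 704, 371, 334 and 322 CPM in Vehicle replicates 1 to 4 and to between 124 and 229 CPM in Aldara, and 6 of the 10 fell (7 with the replicate block; 3 when Vehicle replicate 2, Aldara replicate 2 or Aldara replicate 3 was left out, or without the filter). Vehicle replicate 1 was thus the highest library for this list as for Pgr, Greb1 and Prom1. It was also the highest for the summed shared luminal genes (17248 CPM) and basal genes (1642 CPM). For the macrophage list it was the lowest (1449 CPM). Stromal fibroblasts can also carry oestrogen and progesterone receptors. Macrophage genes were higher in Aldara, with 6 of 12 risen and 0 fallen (11 with the replicate block, with DESeq2 or when Aldara replicate 1 was left out; 3 when Aldara replicate 4 was left out, without the filter or with luminal scaling). Of 11 luminal progenitor genes 2 rose and 1 fell (3 rose with the replicate block, with DESeq2 or without the filter). Those that rose were Lcn2, from 545 ± 27.3 to 954 ± 118 CPM, and Cd14, from 375 ± 15.1 to 604 ± 108 CPM. Cyp24a1 fell. Elf5 (log2 fold change 0.02), Kit (0.17) and Csn3 (−0.04) did not pass. A higher fitted level in Aldara was found for 9 of the 11, beside 8539 of all 16780 genes tested. They summed to between 2985 and 3778 CPM in Vehicle and between 3885 and 4847 CPM in Aldara, so the groups did not overlap. Of 9 adipocyte genes 3 rose and 0 fell, and 1 fell with the replicate block, with upper-quartile factors or without Vehicle replicate 3 (5 rose and 1 fell with DESeq2). Those that rose were low in Vehicle, with Adipoq at 0.569, Cidec at 0.664 and Cfd at 3.04 CPM, against 1.25, 2.83 and 13.2 CPM in Aldara. The more abundant Fabp4 (156 and 131 CPM) and Lipe (98.4 and 79.9 CPM) were lower in Aldara and did not pass. The list summed to between 242 and 284 CPM in Vehicle and between 178 and 305 CPM in Aldara. None of 10 basal genes passed, although 1 fell with the replicate block (Trp63), with DESeq2, without the filter or without Aldara replicate 1, and none of 6 endothelial genes passed under any setting. The part of any of these cell types in the falls of Pgr and Greb1 was not tested. Without Vehicle replicate 1, Pgr fell by 1.63 (edgeR adjusted p = 0.0333), and 4 of the 10 fibroblast genes fell as well. Scaled on the shared luminal genes, the log2 fold change was −1.86 for Pgr (adjusted p = 0.0221) and −4.04 for Greb1 (0.0714). Under that scaling 4 of the 10 fibroblast genes fell too. Neither setting removes transcripts of another cell type.

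**Figure D5:**
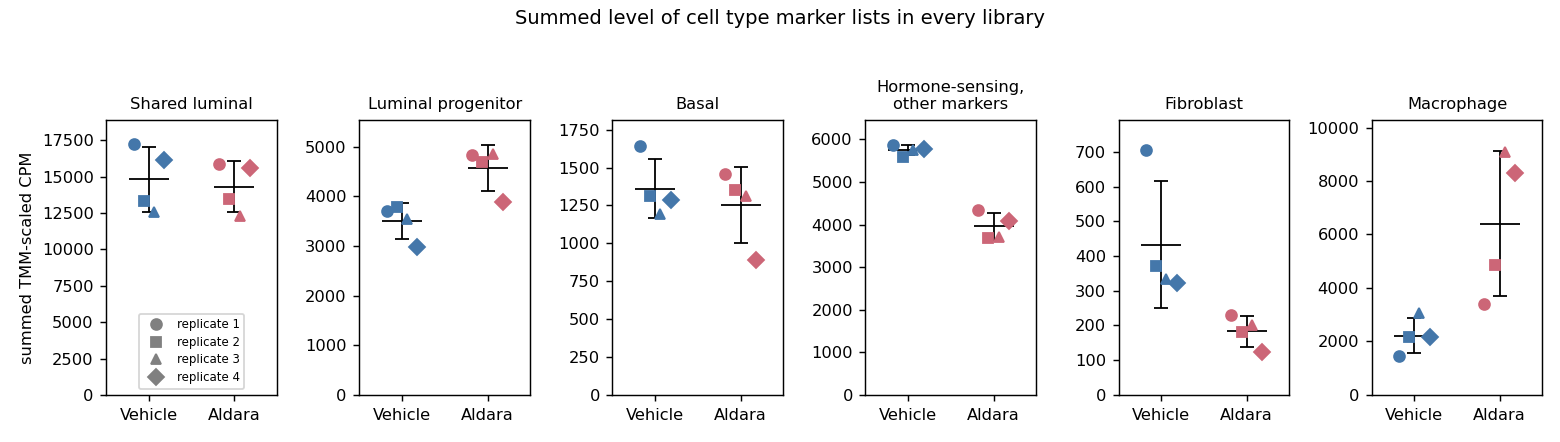
Summed TMM-scaled CPM of 6 marker lists in every library, on linear axes from 0, with mean ± SD of 4 libraries. The shared luminal and basal lists overlapped between the groups. The fibroblast list and the other hormone-sensing markers were lower in all Aldara libraries, and the macrophage and luminal progenitor lists were higher.

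The genes whose pattern over the 8 libraries was most like that of Greb1, of 13095 compared by Pearson correlation of log2 CPM, were Dkkl1 (0.993), Gsn (0.992), Ganab (0.99), Mgat5 (0.99) and Ngly1 (0.989). For Pgr they were Trim24 (0.989), Tmx4 (0.986), Srp72 (0.986), Cyp24a1 (0.984) and Ptpn5 (0.982). For Esr1 they were Tead3 (0.971), Sorbs2 (0.926), Frrs1 (0.924), Itpka (0.922) and Zdhhc1 (0.916). These values are descriptions over 8 libraries that share their group difference and their scaling, and they pool both groups. Of these genes, Frrs1 and Itpka were less like Esr1 without Vehicle replicate 1 (0.797 and 0.788).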

How the data were processed

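RNA of F4/80-enriched fat pad cells was sequenced in 4 Aldara and 4 Vehicle libraries after amplification with a SMARTer ultra-low-input kit, per the labels' protocols. The authors deposited a table of raw integer counts per gene, with HISAT2 2.0.5, featureCounts 1.5.0-p3, DESeq2 and the mm10 build named in the submitters' processing notes; the strand setting is not given in those sources, so reads of overlapping genes cannot be told apart. Symbols came from GENCODE M21 (52073 of 56748 identifiers, 91.8%).

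Tests used these counts in edgeR 4.0.16 under R 4.3.3 (filterByExpr, leaving 16780 genes; TMM factors; robust quasi-likelihood F test; Benjamini-Hochberg adjustment over all genes tested, threshold 0.05), with DESeq2 1.42.0, limma 3.58.1 (voom), upper-quartile factors, scaling on 10 shared luminal genes, no filter, a replicate block and leaving out each library as alternatives. CPM are counts over the effective library size. Standard errors are derived from the F statistic. Ratios added 0.5 to each count. The procedure was tested on simulated data.

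Replicate numbers are shared between the groups in the labels. Deviations from the group means correlated weakly between same-numbered libraries (r of 0.228, 0.108, 0.167 and 0.218 across genes for replicates 1 to 4). For each library, the most correlated library of the other group carried the same number. The main fit and the ratio tests did not use these pairs, and blocked values are given beside them where they change a call or a list count. No library was a copy of another (smallest chi-square per degree of freedom within a group, 20.2).

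The 9 genes and the gene lists were chosen with earlier results on these data known. In each pathway list, up to 4 genes of smallest p among those called are named, and for Greb1, Pgr and Esr1 the 5 most correlated genes of at least 1 CPM, without predicted gene models. The T cell, luminal progenitor and adipocyte genes and Krt19, Ehf, Cish, Elf5, Ghr and Trp63 were named after their values were seen. Reads came from amplified cDNA and carry no molecular tags, so depth limits cover counting error only.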

Additional observations from a re-analysis of the deposited data

Results flagged for a closer look

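Of 96 groups of 4 values checked (the named genes, the ratios and the summed lists), 5 held a library set apart from the other 3 by more than Dixon's critical value of 0.829, where chance gives about 1 in 20. Foxa1 measured 613 CPM in Vehicle replicate 2, beside 363 to 376 CPM in the other Vehicle libraries. Areg measured 311 CPM in Aldara replicate 4, beside 106 to 137 CPM in the other Aldara libraries. Wfdc2 measured 398 CPM in Aldara replicate 1, beside 252 to 274 CPM. The fibroblast list summed to 704 CPM in Vehicle replicate 1, beside 322 to 371 CPM. The luminal progenitor list summed to 3885 CPM in Aldara replicate 4, beside 4688 to 4847 CPM. For Greb1 in Vehicle, where replicate 1 held 49.9 CPM and the others 2.91 to 12.5 CPM, the gap did not reach that value.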

How the results depend on the processing

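Over all genes, falling genes numbered 647 with the settings used, 1198 with DESeq2, 990 with upper-quartile factors, 386 with scaling on the shared luminal genes and 1030 with the replicate block, and rising genes numbered 1171 and, with the luminal scaling, 595. The share of calls that rose went from 64.4% to 49.7% with upper-quartile factors. Leaving out 1 library gave 629 to 1405 rising and 323 to 664 falling genes. Of the 9 hormone-response genes, 0 rose under any setting. Of the 8 tested, 4 fell with DESeq2, 3 with upper-quartile factors, 3 with the replicate block, 1 with luminal scaling and 1 with limma voom. Over all 16780 genes, 1198, 990, 1030, 386 and 558 fell in these fits. Without the filter 2 of 9 fell, beside 693 of 31704 genes. With 1 library left out, 1 to 3 of the 8 or 9 tested fell, beside 323 to 664 of all genes.

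Pgr kept its call except without the filter (log2 fold change −1.9, adjusted p = 0.0628); leaving out 1 library gave −2.14 to −1.63. Greb1 lost it with luminal scaling (−4.04, 0.0714), without the filter (−4.15, 0.112) and with voom (−3.03, 0.139), with −4.49 to −2.73 when 1 library was left out. Wnt4 lost it with luminal scaling (−0.47, 0.0719), the replicate block (−0.45, 0.0668) and voom (−0.45, 0.0525), with −0.55 to −0.37 for left-out libraries. Tnfsf11, tested without the filter by a choice made after seeing the data, lost it with voom (−3.61, 0.0915) and ranged from −4.78 to −3.25. Prlr gained a call with DESeq2 (−0.36, 0.0167) and the replicate block (−0.36, 0.0394). Values near 0 changed sign, for Esr1 without Vehicle replicate 1 (−0.021 to 0.12 over left-out libraries) and for Cited1 with upper-quartile factors (−0.031) and left-out libraries (−0.21 to 0.21), and none of these was called. Krt8, at 0.01, was −0.0023 with DESeq2, −0.041 with upper-quartile factors, −0.0036 without the filter and −0.102 to 0.15 with 1 library left out.

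Under the replicate block the ratios can reach no p under 0.125, so their adjusted p of 0.167 (differences of −1.97, −3.33 and 1.44 for Pgr to Esr1, Greb1 to Esr1 and Wnt4 to Pgr) says nothing about stability. With 1 library left out these differences ranged from −2.2 to −1.65, from −3.88 to −2.44 and from 1.12 to 1.67. Of 280 values of the 20 other named genes under these settings, 248 kept direction and side of the threshold. The cause of these changes was not tested. At these depths Tnfsf11, with 6 counts over the Aldara libraries, is limited by counting.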

Other observations

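Calca, a progesterone-induced gene of mammary epithelium that encodes calcitonin, did not pass the filter on low counts and is named here after its values were seen. It measured 10, 1.74, 2.74 and 0.289 CPM in Vehicle replicates 1 to 4 and 0.171, 0.12, 0.0823 and 0.0532 CPM in Aldara replicates 1 to 4, so every Aldara library lay below every Vehicle library. As for Greb1, Vehicle replicate 1 was the highest.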
